A study of Homo sapiens with 60 samples.

Results

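The genes described here are 3 forkhead box O (FOXO) transcription factors, FOXO1, FOXO3 and FOXO4, and 7 genes that are widely known to be switched on by them, TXNIP, CCNG2, SESN1, SESN3, PIK3IP1, IRS2 and KLHL24. They were taken by name, with earlier results of these data known, and all 10 of 10 were found among the 19712 genes of the deposited tables. Counts of these genes set beside the shares of all genes are therefore a description. RNA was sequenced from 60 libraries of 4 non-small cell lung cancer (NSCLC) lines that carry EGFR mutations, PC9, HCC827, H1975 and HCC2935, each in 5 arms with 3 replicates. Osimertinib is a kinase inhibitor that binds mutant EGFR. Cells in the acute arm received 500 nM osimertinib for 24 h, and cells in the DMSO arm received the vehicle for 24 h, both after 21 days of drug-free culture. Drug-tolerant persister (DTP) cells were those left after 21 days in 500 nM osimertinib. For the short washout, DTP cells were then kept without drug for 24 h, and for the long washout for 7 days (PC9), 3 days (H1975), 4 days (HCC827) or 10 days (HCC2935), so that the long washout is not at a matched time between lines. The labels describe parental lines in monolayer culture and biological triplicates. They do not say whether the arms with the same replicate number share a culture, and they name no clone.

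FOXO factors are held in the cytoplasm when AKT, downstream of growth factor receptors and PI3K, phosphorylates them and 14-3-3 proteins bind them. When that signal falls they enter the nucleus and bind forkhead and insulin response elements, so that much of their control lies in where the protein is and is not visible in mRNA levels. Their target genes include brakes on the cell cycle, sensors of nutrients and oxidative stress, and parts of the insulin and PI3K pathway itself, such as IRS2 and the PI3K inhibitor PIK3IP1. Inhibition of EGFR lowers both PI3K and ERK signalling in cells that depend on that receptor.

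Total counts per library were between 17.7 and 49.1 M, and followed the line, with medians of 40.2 M in PC9, 42.9 M in H1975, 19.7 M in HCC827 and 21.6 M in HCC2935. The nearest library by correlation belonged to the same line for 60 of 60 libraries and to the same line and arm for 47. All 5 epithelial markers (EPCAM, CDH1, KRT8, KRT18 and KRT19) had counts in every library, with summed levels of 1636 TPM or more. Their group means went from 6962 (DMSO) to 12968 (acute) TPM in PC9, from 6961 to 4888 in HCC827, from 2632 to 3590.3 in H1975 and from 10198 to 4953 in HCC2935. In DTP cells these means were 8097, 2964, 1932 and 7447 TPM in the same order. Single markers could be low, with a lowest level in a library of 1.28 TPM for CDH1 (median 201) and 18.1 for EPCAM (median 304). Of 9 markers of leukocytes, fibroblasts and endothelium, CD3E was at 0 in 42 libraries and PTPRC in 12, while CD68 had a median of 81.9 TPM and COL1A1 one of 29.96 TPM. The summed level of these 9 markers in a library was 27.1 TPM at the lowest, and its group means went from 42.2 (DMSO) to 51.4 (acute) TPM in PC9, from 109.6 to 157 in HCC827, from 143 to 263 in H1975 and from 118 to 81.0 in HCC2935. COL1A1 was called higher in the acute arm of all 4 lines, by between 0.48 and 1.95 on the log2 scale. The part of such cells or transcripts in the results below was not tested. As a check of the drug, 6 of 8 genes of an ERK output list (DUSP6, SPRY4, FOSL1, ETV4, ETV5 and PHLDA1) and 10 of 10 proliferation genes were called lower in the acute arm of all 4 lines. DUSP6, which encodes an ERK phosphatase that ERK itself induces, fell by 3.40 or more on the log2 scale in each line.

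The positions of the 10 genes in GENCODE release 29 (GRCh38) were as follows. Among the factors, FOXO1 (ENSG00000150907.7, chr13:40469953-40666597, minus strand) and FOXO3 (ENSG00000118689.14, chr6:108559835-108684774, plus strand) are long genes, and FOXO4 (ENSG00000184481.16, chrX:71096197-71103535, plus strand) is a short gene of the X chromosome. TXNIP lies on chromosome 1 (ENSG00000265972.5, chr1:145992435-145996600, minus strand), CCNG2 on chromosome 4 (ENSG00000138764.14, chr4:77157151-77433388, plus strand) and KLHL24 on chromosome 3 (ENSG00000114796.15, chr3:183635568-183684477, plus strand). The sestrin genes are SESN1 (ENSG00000080546.13, chr6:108986437-109094819, minus strand) and SESN3 (ENSG00000149212.11, chr11:95165513-95232541, minus strand). PIK3IP1 (ENSG00000100100.12, chr22:31281593-31292534, minus strand) and IRS2 (ENSG00000185950.8, chr13:109752698-109786568, minus strand) complete the set. PIK3IP1 is overlapped on the opposite strand by PIK3IP1-AS1, and FOXO1, FOXO3, CCNG2, SESN1, SESN3 and IRS2 are also overlapped by at least 1 gene on that strand. Whether reads were counted by strand is not known, so reads of overlapping genes cannot be told apart. The pseudogenes FOXO1B, FOXO3B and CCNG2P1 carry sequence close to their parent genes, and the levels of FOXO1, FOXO3 and CCNG2 are uncertain to that extent.

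Promoters of the 10 genes were read for the core sequences that FOXO proteins are known to bind, since the genes were chosen as their targets. RefSeq (GRCh38.p14) gave 17 windows for 10 of 10 genes, each from 250 bases before to 50 bases after a gene start. The forkhead core GTAAACA, or its reverse complement TGTTTAC, was present in 3.42% of 35116 promoters of all genes, and in 3 of the 17 windows, which belong to 3 of the 10 genes. The insulin response core CAAAACAA, or its reverse complement TTGTTTTG, was present in 1.68% of all promoters and in 1 of the 17 windows. The matches are shown 5′ to 3′ along each gene's own strand, with the core in capitals:
TXNIP (chr1:145996647-145996753, minus strand): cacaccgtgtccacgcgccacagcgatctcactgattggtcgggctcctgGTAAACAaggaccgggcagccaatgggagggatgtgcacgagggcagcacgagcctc
FOXO4 (chrX:71095863-71095892, plus strand): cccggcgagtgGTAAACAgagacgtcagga
PIK3IP1 (chr22:31292454-31292483, minus strand): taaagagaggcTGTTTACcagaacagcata
IRS2 (chr13:109786584-109786674, minus strand): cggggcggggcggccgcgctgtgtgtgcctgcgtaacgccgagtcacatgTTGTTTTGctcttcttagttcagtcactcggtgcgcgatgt
The core began 124 bases before the start of the RefSeq entry in TXNIP and 41 bases before it in IRS2, and lay 24 bases after it in FOXO4 and 17 bases after it in PIK3IP1. A match of letters is a description and not a bound site. The other 6 genes had neither core in these windows.

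In untreated cells FOXO3 was the most abundant of the factors in every line. On the length-corrected TPM scale, the DMSO means of FOXO3 lay between 18.2 and 29.1, those of FOXO1 between 1.72 and 2.65, and those of FOXO4 between 0.510 and 4.83 (n = 3 per line). FOXO3 thus made up 84.1% of the summed TPM of the 3 factors in PC9, 75.9% in HCC827, 78.5% in H1975 and 90.5% in HCC2935. TXNIP, an arrestin-like protein that binds thioredoxin and curbs glucose uptake, was the most abundant of the 7 induced genes in each line, from 40.6 ± 5.22 TPM (SD, n = 3) in PC9 to 248 ± 21.6 in HCC2935. SESN1, SESN3, KLHL24 and PIK3IP1 were low, with DMSO means of at most 2.48, 2.62, 9.83 and 10.3 TPM.

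Before treatment each pair of lines differed in some of the 10 genes, at about the share of all genes or below it. With edgeR's quasi-likelihood F-test on the 12 DMSO libraries, adjusted by the Benjamini-Hochberg method over all genes and called at an adjusted p under 0.05, between 2 and 7 of the 10 genes were called in each of the 6 pairs of lines. That count was 6 for PC9 against HCC827, where 64% of all tested genes were called, 4 for PC9 against H1975 (64.5% of all genes), 6 for PC9 against HCC2935 (69.1%), 2 for HCC827 against H1975 (57.3%, and 5 genes without HCC827 DMSO replicate 2), 7 for HCC827 against HCC2935 (66.4%) and 7 for H1975 against HCC2935 (67%). These shares set the level against which the counts are read. FOXO3 was the only gene called in all 6 pairs. In CPM, the read counts scaled to library depth by TMM, FOXO3 had DMSO means of 164 ± 9.52 in PC9, 119.9 ± 2.28 in HCC2935, 103 ± 3.65 in HCC827 and 86.1 ± 3.61 in H1975 (SD, n = 3 each), so that every neighbour in this order was called different, although the call between HCC2935 and HCC827 was lost without HCC2935 DMSO replicate 1 or 2 or HCC827 DMSO replicate 3 (adjusted p up to 0.0645). On the log2 TPM scale limma called neither PC9 against HCC2935 (0.04, adjusted p = 0.715, with 0.01 added) nor HCC827 against H1975 (0.15, 0.131) for this gene. FOXO4 was low in HCC2935, with 0.329, 1.12 and 1.26 CPM, against 4.98, 6.92 and 7.21 in H1975, 5.88, 9.00 and 7.26 in PC9 and 10.96, 4.83 and 15.02 in HCC827. Each of the other lines exceeded HCC2935 (H1975 by 2.81 on the log2 scale, edgeR adjusted p = 0.000132), and no pair among those 3 lines was called.

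TXNIP was lowest in PC9 with 84.2, 104 and 108 CPM and highest in HCC2935 with 505, 458 and 400.4, and the groups did not overlap (log2 difference PC9 against HCC2935 -2.20, edgeR adjusted p = 4.94e-07). IRS2, an adaptor that carries insulin and IGF receptor signals to PI3K, had 111, 113 and 104 CPM in PC9, 16.98, 33.2 and 22.0 in H1975, 24.8, 25.7 and 19.9 in HCC827 and 8.35, 11.3 and 8.34 in HCC2935. PC9 was above and HCC2935 below each other line, and HCC827 and H1975 were not called different (log2 difference -0.01, edgeR adjusted p = 0.963). SESN3 and PIK3IP1 were both highest in HCC2935, which was called above each other line for both genes. The SESN3 call against HCC827 was lost without HCC2935 DMSO replicate 2 or HCC827 DMSO replicate 1 (edgeR adjusted p up to 0.0684). SESN1 was called in none of the 6 pairs, and FOXO1 was called in none while the libraries included HCC2935 DMSO replicate 2, which stood at 23.0 CPM beside 3.95 and 3.40 in replicates 1 and 3. Without that library FOXO1 was also called higher in PC9 than in HCC827 and H1975, and lower in HCC2935 than in each other line, for example by 1.08 on the log2 scale against HCC827 (edgeR adjusted p = 0.000605).

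**Figure D1:**
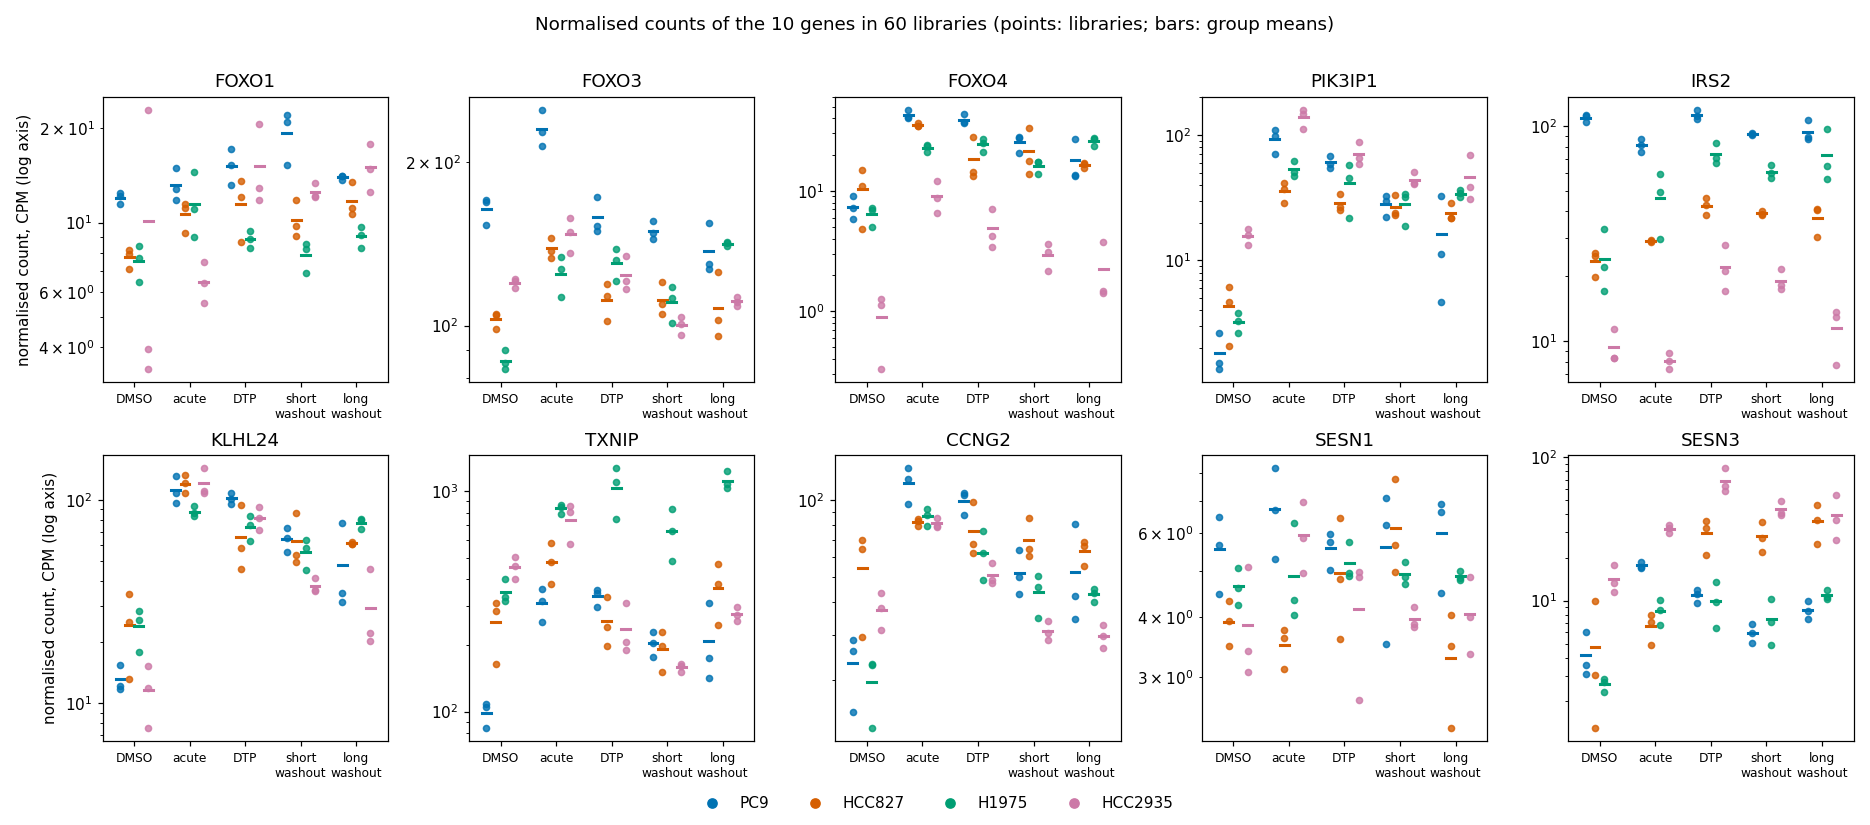
Normalised counts (CPM, log axis) of the 10 genes in the 5 arms, with a point for each of the 60 libraries, a bar for each group mean and a colour for each line. KLHL24, PIK3IP1 and FOXO4 lie above their DMSO libraries in the acute arm of every line, while SESN1 stays between 2.35 and 8.16 CPM throughout.

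Within 24 h of osimertinib most of the genes were higher. Of 40 tests (10 genes in 4 lines), 27 were called higher, 1 lower and 12 were not called. FOXO3, FOXO4, TXNIP, PIK3IP1 and KLHL24 were called higher in all 4 lines, CCNG2 and SESN3 in 3, and IRS2 was called in opposite directions in PC9 and H1975. FOXO1 and SESN1 were called in none. By line, 7 genes were called higher and 1 lower in PC9, where 34.4% of all tested genes were called higher and 34.1% lower. In HCC827 the count was 5 higher (all genes 20.2% higher and 22.1% lower), in H1975 8 higher (21.2% and 23.7%) and in HCC2935 7 higher (22% and 25.1%). The median log2 fold change of the 10 genes was 1.81 in PC9, 0.49 in HCC827, 1.41 in H1975 and 0.88 in HCC2935, while the median over all tested genes was at most 0.03. These are bulk samples, in which a change in the share of cells that express a gene and a change in the RNA per cell cannot be told apart.

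Among the factors, FOXO4 changed most. In PC9 it had 5.88, 9.00 and 7.26 CPM under DMSO and 47.4, 41.2 and 40.0 after acute osimertinib, a log2 fold change of 2.49 ± 0.16 (SE, edgeR adjusted p = 1.98e-06). In HCC2935 it went from 0.329, 1.12 and 1.26 to 8.71, 6.60 and 12.1 CPM (3.32 ± 0.44, adjusted p = 0.000228), in HCC827 from 10.96, 4.83 and 15.02 to 34.6, 36.6 and 34.4 (1.74 ± 0.32, 0.00261) and in H1975 from 4.98, 6.92 and 7.21 to 23.8, 23.9 and 20.9 (1.78 ± 0.17, 0.000247). The treated and DMSO libraries did not overlap in any line. FOXO3 moved little in size but in every line, by 0.45 in PC9, 0.40 in HCC827, 0.47 in H1975 and 0.27 in HCC2935 on the log2 scale, with edgeR adjusted p between 0.00073 and 0.0217. The HCC2935 call of FOXO3 was lost without DMSO replicate 1, DMSO replicate 2 or acute replicate 1, with adjusted p up to 0.0745, and by limma on log2 TPM (up to 0.0536).

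The share of FOXO4 in the summed TPM of the 3 factors went from 8.99% to 29.5% in PC9, from 17.7% to 35.9% in HCC827, from 13.8% to 28.4% in H1975 and from 1.60% to 12.3% in HCC2935, while FOXO3 stayed the largest part in all 20 groups. FOXO1 had a log2 fold change of 0.10 ± 0.13 in PC9, 0.42 ± 0.18 in HCC827, 0.54 ± 0.21 in H1975 and -0.66 ± 0.62 in HCC2935 (SE), none of them called, although the H1975 value passed without acute replicate 1 (edgeR adjusted p = 0.0323) and with DESeq2 (adjusted p = 0.0427). The HCC2935 value rests on DMSO replicate 2, and without it FOXO1 was called higher, by 0.78 (edgeR adjusted p = 0.04).

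**Figure D2:**
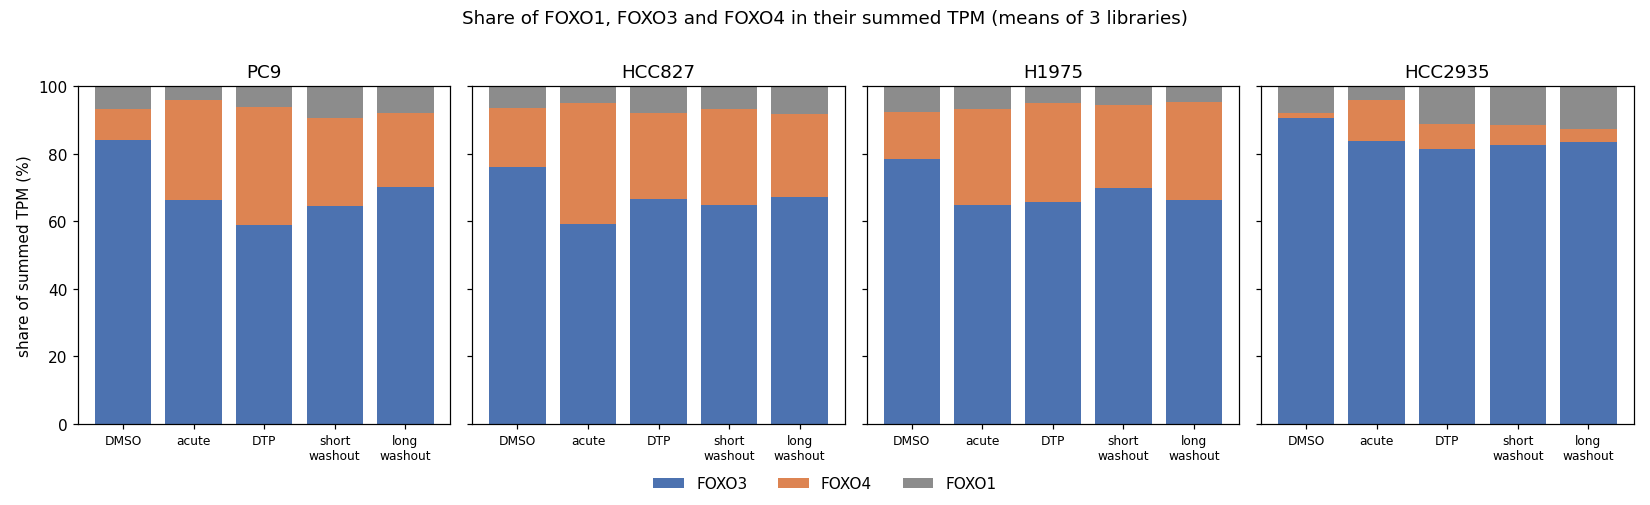
Share of FOXO1, FOXO3 and FOXO4 in their summed TPM (percent, mean of 3 libraries) by arm in each line. FOXO3 holds between 58.8% and 90.5% in the 20 groups, FOXO4 between 1.60% and 35.9% and FOXO1 between 4.13% and 12.7%.

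PIK3IP1, a membrane protein that inhibits PI3K, had the largest change of the 10 genes in PC9, HCC827 and H1975. Its PC9 libraries went from 1.36, 2.63 and 1.53 CPM under DMSO to 98.0, 109 and 70.9 after acute osimertinib (5.58 ± 0.26 on the log2 scale, SE, edgeR adjusted p = 4.93e-07), a fold of 47.8. In H1975 they went from 3.84, 2.64 and 3.32 to 46.9, 50.7 and 61.8 CPM (3.95 ± 0.19), in HCC827 from 6.20, 2.103 and 4.65 to 37.2, 41.0 and 28.7 (3.01 ± 0.33), and in HCC2935, where it started highest, from 15.9, 13.3 and 17.7 to 159, 147 and 111 (3.12 ± 0.16). No treated library overlapped a DMSO library of its line.

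KLHL24 encodes an adaptor of a cullin ubiquitin ligase. In HCC2935 it went from 15.3, 7.56 and 11.9 to 143, 111 and 109 CPM (3.35 ± 0.23, SE, edgeR adjusted p = 4.15e-06) and in PC9 from 12.1, 15.4 and 11.8 to 108, 131 and 96.3 (3.04 ± 0.14, adjusted p = 5.74e-07). It rose by 2.27 ± 0.28 in HCC827 and 1.80 ± 0.17 in H1975. Its acute means lay within 87.7 to 121 CPM in the 4 lines, a narrower span than that of PIK3IP1 (35.6 to 139 CPM).

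TXNIP rose in all 4 lines, most in PC9, from 84.2, 104 and 108 to 318, 359 and 255 CPM (1.61 ± 0.14, SE, edgeR adjusted p = 9.64e-06). The log2 fold changes were 1.19 ± 0.11 in H1975, 0.88 ± 0.24 in HCC827 and 0.68 ± 0.14 in HCC2935, with adjusted p up to 0.0148. The HCC827 call was lost without acute replicate 1 (adjusted p = 0.0619).

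CCNG2 encodes cyclin G2, an unconventional cyclin linked to cell cycle arrest. It had 15.1, 26.0 and 28.7 CPM under DMSO and 119.9, 132 and 95.9 after acute osimertinib in PC9 (2.27 ± 0.22, edgeR adjusted p = 2.15e-05), and rose by 2.06 ± 0.22 in H1975 and 1.08 ± 0.13 in HCC2935. In HCC827 its DMSO libraries were spread over 64.5, 29.5 and 69.7 CPM, the acute ones had 82.7, 84.3 and 79.2, and the difference was not called (0.55 ± 0.26, adjusted p = 0.121).

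The sestrins curb mTORC1 and limit oxidative damage. SESN3 went from 3.54, 5.99 and 3.07 to 16.8, 17.3 and 18.7 CPM in PC9 (2.02 ± 0.23, edgeR adjusted p = 5.24e-05), and was called higher in H1975 (1.63 ± 0.22) and HCC2935 (1.14 ± 0.16). In HCC827 it had 3.05, 1.29 and 9.97 CPM under DMSO and 7.93, 7.09 and 4.94 after acute osimertinib, which was not called (0.43 ± 0.59, adjusted p = 0.589). Without DMSO replicate 3, the high library, it was called (1.58, adjusted p = 0.0165). SESN1 showed no called change, with log2 fold changes between -0.19 in HCC827 and 0.59 in HCC2935. The HCC2935 value passed without DMSO replicate 1 (0.83, adjusted p = 0.0471).

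IRS2 was called in opposite directions in PC9 and H1975. In PC9 it fell from 111, 113 and 104 to 75.7, 81.4 and 86.7 CPM, with no overlap (-0.47 ± 0.07, edgeR adjusted p = 0.000406). In H1975 it had 16.98, 33.2 and 22.0 CPM under DMSO and 59.7, 49.4 and 29.9 after acute osimertinib, which overlapped (0.88 ± 0.31, adjusted p = 0.0494). That call was lost without DMSO replicate 1, DMSO replicate 3, acute replicate 1 or acute replicate 2, with adjusted p up to 0.143. It was also lost without the filter on low counts (adjusted p = 0.0564) and by limma on log2 TPM (up to 0.0655). IRS2 was not called in HCC827 (0.28 ± 0.13) or HCC2935 (-0.24 ± 0.18).

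**Figure D3:**
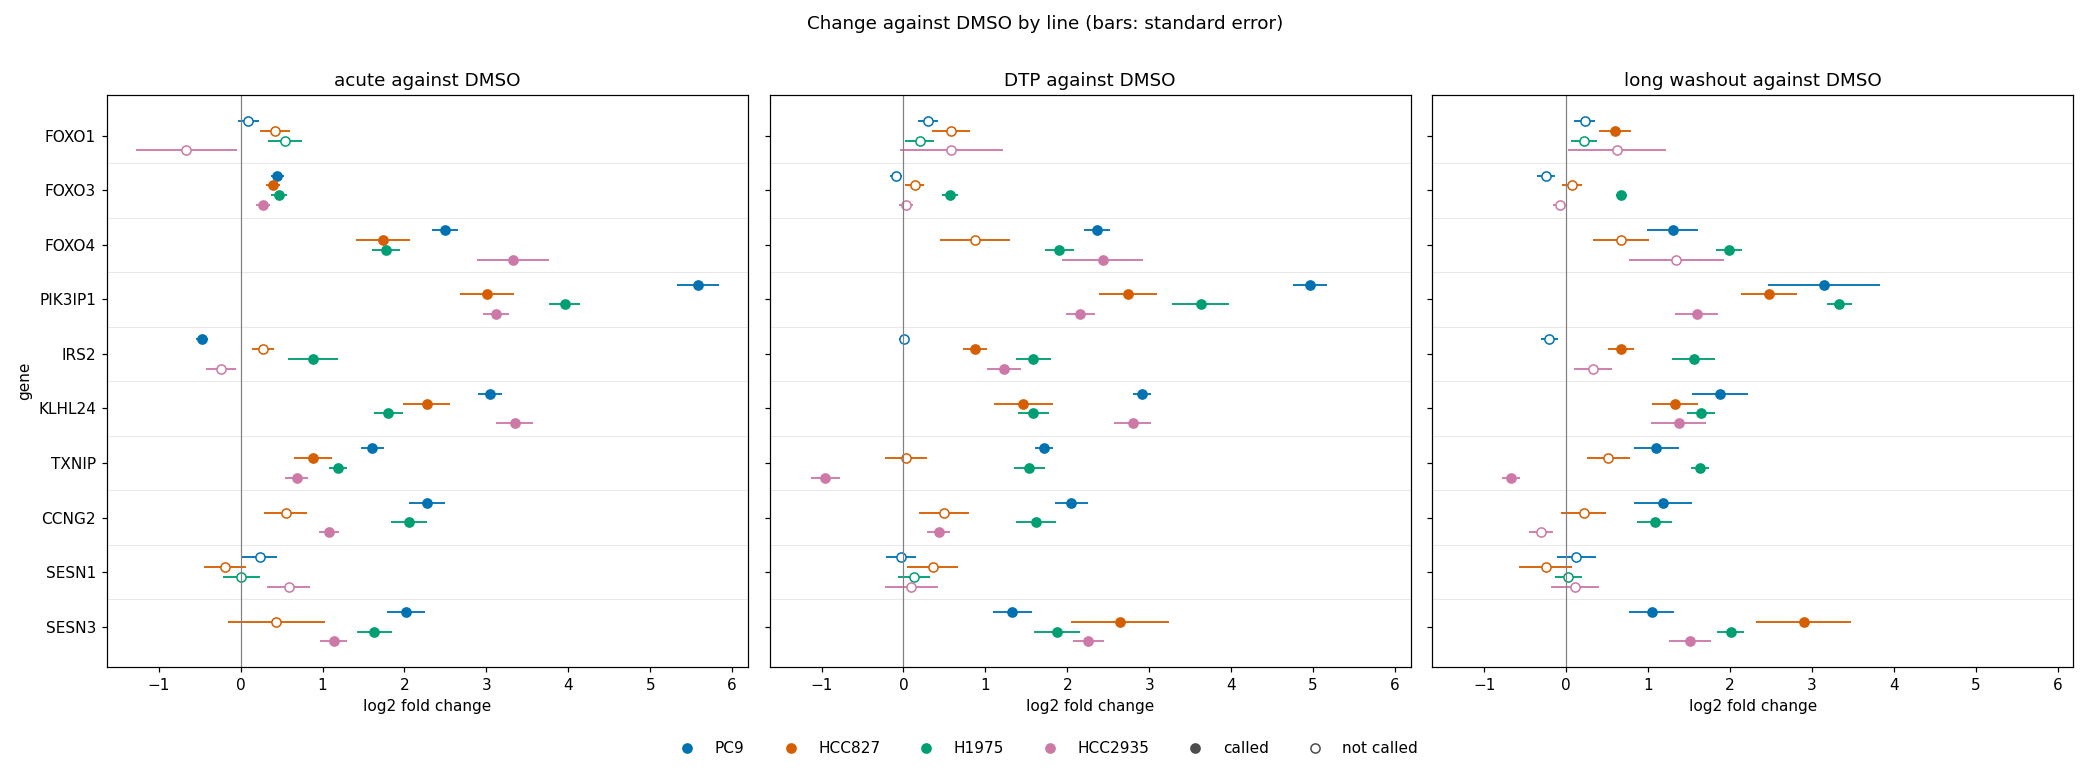
Log2 fold change against DMSO (x axis, bars for the standard error) of each gene (y axis) in each line (colour) for the acute, DTP and long washout arms. Filled points were called by edgeR. The values of PIK3IP1, KLHL24 and FOXO4 lie to the right of 0 in all 3 panels, those of SESN1 lie between -0.25 and 0.59, and TXNIP in HCC2935 moves from 0.68 (acute) to -0.95 (DTP).

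Whether the lines responded alike was tested by the 3 interaction terms of line and arm in the 24 acute and DMSO libraries. A difference between the lines was called for 6 of the 10 genes, where 40.5% of all tested genes were called. PIK3IP1 differed most by this test (edgeR adjusted p = 7.35e-05), from 3.01 in HCC827 to 5.58 in PC9. CCNG2 (adjusted p = 0.0014), IRS2 (0.00361), KLHL24 (0.00501), FOXO4 (0.0332) and TXNIP (0.0465) were also called. The TXNIP call was lost when any of 18 of the 24 libraries was left out, with adjusted p up to 0.13, and the FOXO4 call when any of 7 was left out, with adjusted p up to 0.0963. The FOXO4 call was also lost by limma, with adjusted p = 0.0791 on log2 TPM with 0.01 added and 0.372 with 1 added, and the TXNIP call with scaling by library size alone (edgeR adjusted p = 0.0717) or without the filter on low counts (0.0519). No difference was called for FOXO1, FOXO3, SESN1 and SESN3, and SESN3 was called without HCC827 DMSO replicate 2 (adjusted p = 0.00647).

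After 21 days in osimertinib the surviving DTP cells still held most of these genes above DMSO, but TXNIP and FOXO3 parted between the lines. Of 40 tests, 24 were called higher, 1 lower and 15 were not called. PIK3IP1, KLHL24 and SESN3 were called higher in all 4 lines, FOXO4, CCNG2 and IRS2 in 3, and FOXO3 in H1975 alone. The counts of genes called higher were 6 in PC9 (all tested genes 35.4% higher and 35.9% lower), 4 in HCC827 (19.4% and 17.2%), 8 in H1975 (22.4% and 23.4%) and 6 in HCC2935 (25.3% and 27.2%), with 1 lower in HCC2935. These comparisons use the same DMSO libraries as the acute ones. In PC9 the TMM factors over the 60 libraries shifted log2 CPM differences of DTP cells against DMSO by -0.12 from scaling by library size alone. The shift was -0.15 for DTP against acute and -0.11 for long washout against DMSO. The tested fold changes used factors from the libraries of each comparison, and their shift can differ.

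TXNIP had 297, 358 and 345 CPM in PC9 DTP cells (1.71 ± 0.11 on the log2 scale against DMSO, edgeR adjusted p = 5.21e-07) and 1098, 751 and 1269 in H1975 (1.54 ± 0.19, adjusted p = 0.000441). In HCC827 it had 198, 332 and 242 CPM, which overlapped its DMSO libraries of 288, 164 and 309.8 (0.04 ± 0.25, adjusted p = 0.929). In HCC2935 it was lower, with 190.0, 312 and 208 CPM against 505, 458 and 400.4 under DMSO (-0.95 ± 0.18, adjusted p = 0.00174). The difference between the lines was called (adjusted p = 1.56e-06).

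SESN3 was called higher in HCC827 DTP cells, with 20.9, 32.2 and 35.8 CPM against 3.05, 1.29 and 9.97 under DMSO (2.64 ± 0.60, edgeR adjusted p = 0.00868), and reached its highest levels of the series in HCC2935 DTP cells, with 58.3, 83.6 and 62.8 CPM (2.26 ± 0.19, adjusted p = 2.37e-05). IRS2 rose in HCC827 (0.87 ± 0.15), H1975 (1.59 ± 0.22) and HCC2935 (1.23 ± 0.20), while PC9 DTP cells had 108, 111 and 119 CPM beside 111, 113 and 104 under DMSO (0.01 ± 0.07, adjusted p = 0.943). On the log2 TPM scale, where its PC9 means were 14.8 ± 0.623 TPM under DMSO and 17.9 ± 1.10 in DTP cells (SD, n = 3), limma called IRS2 higher (0.27 with 0.01 added, adjusted p = 0.0205). FOXO4 rose in PC9 (2.36 ± 0.16), H1975 (1.90 ± 0.18) and HCC2935 (2.43 ± 0.50), and was not called in HCC827 (0.87 ± 0.42), where DTP replicate 1 stood at 28.2 CPM beside 13.2 and 14.3. The CCNG2 call in HCC2935 (0.43 ± 0.14, adjusted p = 0.0289) was lost without DMSO replicate 1, DMSO replicate 2 or DTP replicate 2, with adjusted p up to 0.0943.

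FOXO1 was not called in any line, with log2 fold changes between 0.20 and 0.58. Without HCC2935 DMSO replicate 2 the HCC2935 value was 2.05 (edgeR adjusted p = 0.000988), and FOXO1 also passed in HCC827 without DTP replicate 1 (adjusted p = 0.0275) and in PC9 without DTP replicate 2 (adjusted p = 0.0244). The PC9 value of FOXO1 (0.30, adjusted p = 0.0502) was called under 5 of the other settings, for example 0.46 with scaling by library size alone (adjusted p = 0.00744). By the interaction test, 7 of the 10 genes differed between the lines (61.6% of all tested genes), namely FOXO3, FOXO4, TXNIP, CCNG2, PIK3IP1, IRS2 and KLHL24. The FOXO4 call (adjusted p = 0.0397) was lost when any of 9 of 24 libraries was left out, with adjusted p up to 0.169, and by limma on log2 TPM with 0.01 added (adjusted p = 0.0548). The FOXO1 and SESN3 differences were called without HCC2935 DMSO replicate 2 (adjusted p = 0.000168) and without HCC827 DMSO replicate 3 (adjusted p = 0.00167).

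Set against the acute arm directly, DTP cells had lower levels of several genes in HCC2935 and HCC827, and higher IRS2 in 3 lines. The HCC827 calls were often lost when a single library was left out. In PC9 and H1975 the counts lay nearer to the shares of all genes. Of 40 tests, 13 were called lower, 6 higher and 21 were not called. The counts were 1 higher and 3 lower in PC9 (all tested genes 19.2% and 20.6%), 2 and 4 in HCC827 (15.7% and 13.8%), 0 and 1 in H1975 (11.2% and 14.9%) and 3 and 5 in HCC2935 (22% and 20.4%). IRS2 was called higher in PC9 (0.48 ± 0.07, edgeR adjusted p = 0.00115), HCC827 (0.55 ± 0.10, 0.0069) and HCC2935 (1.46 ± 0.19, 0.000242). In H1975 it was 0.65 ± 0.22 (adjusted p = 0.0557), and was called without acute replicate 1 (0.87, 0.0151). FOXO3 was called lower in PC9 (-0.53 ± 0.08) and HCC827 (-0.31 ± 0.09).

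SESN3 went in opposite directions. It was higher in DTP than in acute cells in HCC827, with 20.9, 32.2 and 35.8 CPM against 7.93, 7.09 and 4.94 (2.16 ± 0.26, edgeR adjusted p = 0.00129), and in HCC2935 (1.11 ± 0.14, adjusted p = 0.000206). It was lower in PC9, with 9.65, 11.1 and 11.9 CPM against 16.8, 17.3 and 18.7 (-0.68 ± 0.11, adjusted p = 0.0018). The PC9 call was lost by limma on log2 TPM, with -0.42 (adjusted p = 0.0855) with 0.01 added. A difference between the lines in this contrast was not tested. In HCC2935, TXNIP fell from 854, 803 and 577 CPM in the acute arm to 190.0, 312 and 208 in DTP cells (-1.65 ± 0.20, adjusted p = 0.000134), and FOXO1 was higher, with 11.8, 20.7 and 12.9 CPM against 7.4997, 6.39 and 5.54 (1.24 ± 0.24, adjusted p = 0.0023). In a fit of the line's 15 libraries the FOXO1 value was 1.22 and was not called (adjusted p = 0.0591). PIK3IP1 was called lower in HCC2935 (-0.97 ± 0.17) and in PC9 (-0.61 ± 0.15), where the call was lost without DTP replicate 1 (adjusted p = 0.0524), by limma on log2 TPM (up to 0.0982) and in a fit of 15 libraries (0.304). KLHL24 (-0.56 ± 0.13), CCNG2 (-0.66 ± 0.10) and FOXO4 (-0.89 ± 0.31) were also lower in HCC2935. The KLHL24 call was lost with 15 libraries (adjusted p = 0.0772), and the FOXO4 call with 15 libraries (0.0937) and by limma on log2 TPM (up to 0.118). The FOXO4 call was also lost without acute replicate 1 or 3 or DTP replicate 1 or 3 (adjusted p up to 0.165). In HCC827 the lower calls of FOXO3, FOXO4 (-0.92 ± 0.27), TXNIP (-0.90 ± 0.21) and KLHL24 (-0.86 ± 0.25) were each lost without at least 3 single libraries. Those of FOXO3, FOXO4 and KLHL24 were lost with 15 libraries (adjusted p up to 0.0888). The number of genes called in HCC827 was 2 or 3 of 10 without acute replicate 1, 2 or 3 or DTP replicate 2 or 3. The share of all tested genes called fell too, to 16.2%, 17%, 17.9%, 22% and 19.7% in that order, against 29.5% with every library. The single H1975 call, CCNG2 lower (-0.50 ± 0.15), was lost without acute replicate 2 or 3 or DTP replicate 2 or 3, with adjusted p up to 0.124, and with 15 libraries (adjusted p = 0.0686) or limma (up to 0.0584).

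When the drug was taken away for 24 h, several target genes fell in PC9 and HCC2935, and in H1975 where the replicate numbers were used as a block. Of 40 tests of short washout against DTP cells, 11 were called lower, none was called higher and 29 were not called by edgeR. In PC9, 7 genes were lower (all tested genes 10.1% lower and 12.1% higher), namely FOXO4, TXNIP, CCNG2, SESN3, PIK3IP1, IRS2 and KLHL24. PIK3IP1 fell from 54.1, 58.6 and 68.1 to 32.4, 22.2 and 29.7 CPM (-1.10 ± 0.14, edgeR adjusted p = 0.00169) and KLHL24 from 102, 95.7 and 108 to 72.9, 55.7 and 65.0 (-0.66 ± 0.09, 0.00258), both without overlap and both still above their DMSO libraries. In a fit of all 15 libraries of PC9, in which the arms share 1 estimate of the spread, 1 of the 10 genes and 5.92% of all tested genes were called, against 22.2% in the fit of 6 libraries.

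In HCC2935, CCNG2 (-0.72 ± 0.11), SESN3 (-0.65 ± 0.15), PIK3IP1 (-0.68 ± 0.16) and KLHL24 (-1.10 ± 0.12) were called lower, where 1.04% of all tested genes were called lower and 2.47% higher. KLHL24 fell from 71.0, 92.0 and 81.9 to 35.8, 36.3 and 41.5 CPM (edgeR adjusted p = 0.00463), and its call held when each library was left out. The number of genes called in HCC2935 was 1 without short washout replicate 1 or 3, 2 without short washout replicate 2 or DTP replicate 2, and 5 at the most. Without short washout replicate 1, 3 or 2 or DTP replicate 2, the share of all tested genes called was 0.684%, 0.522%, 0.823% and 1.38% in that order. It was 3.52% with every library. The PIK3IP1 and SESN3 calls were lost with 15 libraries (adjusted p = 0.135 and 0.12) and by limma on log2 TPM.

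In HCC827 and H1975, edgeR called none of the 10 genes and 0% of all tested genes in either direction in both lines. At an unadjusted p under 0.05, 0 of the 10 genes and 197 of all genes passed in HCC827, and 6 of the 10 and 1950 of all genes in H1975. In these lines the same-numbered short washout and DTP libraries deviated together (correlations of 0.402 to 0.694 in HCC827 and 0.249 to 0.599 in H1975). With the replicate number as a block, 7 of the 10 genes were called lower in H1975 (all tested genes 4.87% lower and 6.7% higher), and in HCC827 none of the 10 (0.0143% of all genes lower). In H1975 with the block, TXNIP fell by 0.65 ± 0.06 (SE, edgeR adjusted p = 0.000478), with 1098, 751 and 1269 CPM in DTP cells and 657, 483 and 833 after short washout, each replicate below its same-numbered partner. FOXO4 (-0.58 ± 0.12), CCNG2 (-0.48 ± 0.09), PIK3IP1 (-0.49 ± 0.10), KLHL24 (-0.40 ± 0.08), IRS2 (-0.25 ± 0.07) and FOXO3 (-0.23 ± 0.07) were the others. DESeq2 called 1 of the 10 genes in H1975 and none in HCC827. In HCC827 all 10 values lay between -0.41 (TXNIP) and 0.31 (SESN1) on the log2 scale without the block.

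**Figure D4:**
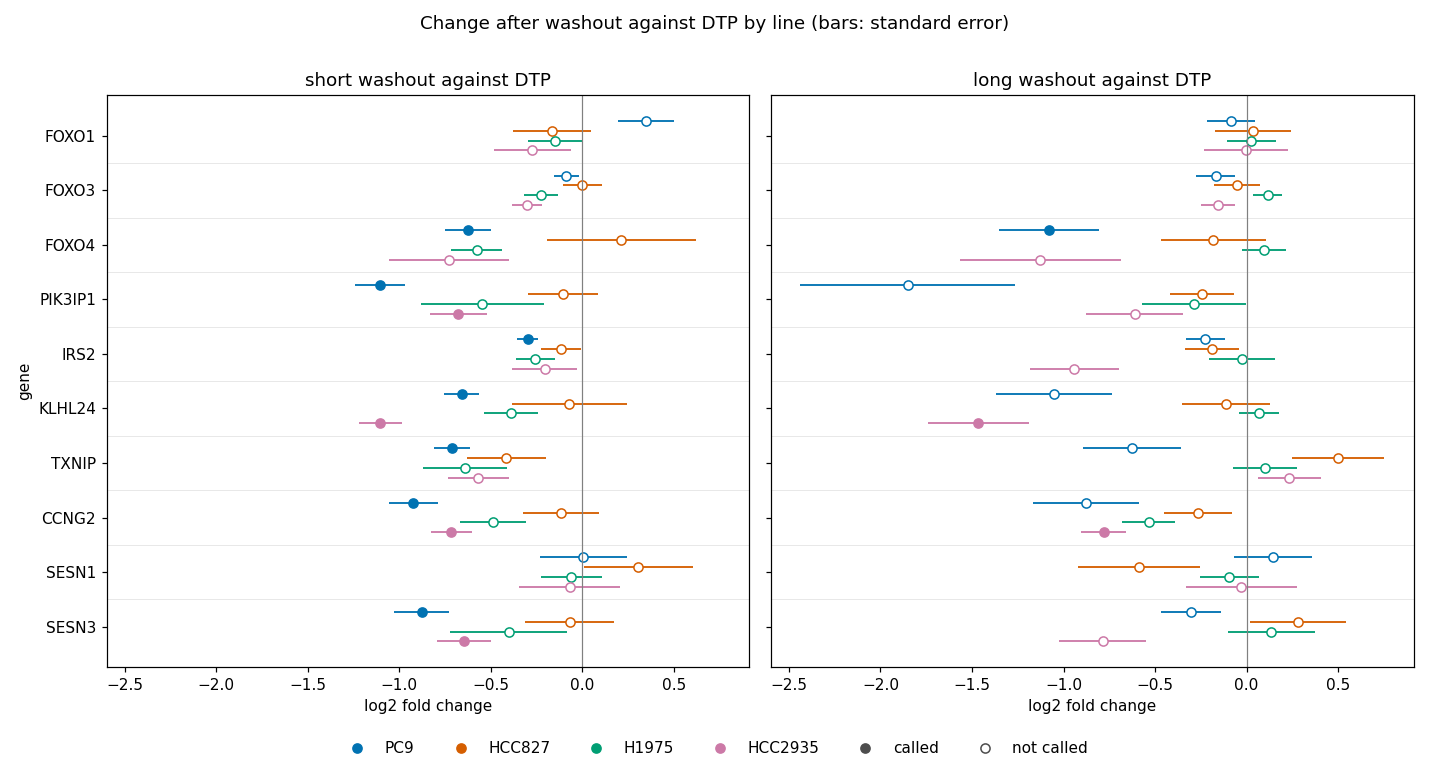
Log2 fold change against DTP cells (x axis, bars for the standard error) of each gene in each line after short washout and after long washout, from fits without the replicate block. Filled points were called by edgeR. PC9 and HCC2935 points of PIK3IP1, KLHL24 and CCNG2 lie left of 0 in both panels, and the HCC827 points of the right panel lie between -0.59 and 0.50.

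By the labels the long washout lasted until the cells grew again. Against DTP cells, 3 of 40 tests were called lower, none higher and 37 were not called. These were FOXO4 in PC9 (-1.08 ± 0.27, edgeR adjusted p = 0.039), where 5.47% of all tested genes were lower and 11.8% higher, and CCNG2 (-0.78 ± 0.12, 0.0221) and KLHL24 (-1.47 ± 0.27, 0.0266) in HCC2935, where 2.17% were lower and 2.99% higher.

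A single library weighed on the counts in each of these lines. PC9 long washout replicate 3 stood above its partners for 6 of the 7 genes that fell after short washout (all but IRS2), with KLHL24 at 31.5, 34.9 and 76.9 CPM, PIK3IP1 at 11.2, 4.70 and 32.8 and TXNIP at 176, 143 and 312 in replicates 1, 2 and 3. Without it, 5 of the 10 genes were called lower, among them PIK3IP1 (-2.89, edgeR adjusted p = 0.000323) and KLHL24 (-1.58, 7.45e-05), and without any other single library none. That fit without replicate 3 called 46.3% of all tested genes in either direction, against 17.3% with it. The share of all genes called lower alone was not taken for that fit, so the 5 lower genes have no like share beside them. With all libraries, DESeq2 called 5 of the 10 genes in PC9 and 4210 of all genes, against 2496 of all genes by edgeR. The fit of 15 libraries called 6 of the 10 and 37.2% of all tested genes in either direction. In HCC2935, long washout replicate 1 stood above its partners, with KLHL24 at 45.8, 20.3 and 22.2 CPM. Without it, 6 of the 10 genes were called lower and 12.5% of all tested genes were called in either direction, against 5.16% with it, and without long washout replicate 2 or 3 or DTP replicate 1 or 2 none.

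In HCC827 edgeR called none of the 10 genes and 0% of all tested genes in either direction, with 0 of the 10 genes at an unadjusted p under 0.05 and 0 by DESeq2. In H1975 it called none of the 10 and 0.0136% of all genes as lower and 0% as higher, with 1 of the 10 (CCNG2, -0.53 ± 0.14) at an unadjusted p under 0.05 and 0 by DESeq2. TXNIP in H1975 had 1035, 1074 and 1239.7 CPM after long washout, against 1098, 751 and 1269 in DTP cells and 657, 483 and 833 after short washout. KLHL24 in H1975 had 80.5, 72.0 and 79.8 CPM after long washout, against 83.1, 62.8 and 75.5 in DTP cells and 57.8, 45.3 and 63.7 after short washout. The H1975 long washout mean thus lay nearer to the DTP mean than the short washout one did for both genes, as it did for FOXO3, FOXO4 and IRS2. PIK3IP1 returned in part, with means of 41.6 CPM in DTP cells, 28.1 after short and 34.1 after long washout. CCNG2 did not return, with 62.2, 43.8 and 43.0 CPM in the same order. This is a description with no test.

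Proliferation genes rose after washout in PC9 and HCC2935. In HCC827 and H1975 they did not rise after the long washout, although by the labels it lasted until the cells grew again. Their summed level (10 genes, TPM) went in PC9 from 474 ± 1.85 (SD, n = 3) in DTP cells to 582 ± 34.3 after short and 949 ± 152 after long washout, and in HCC2935 from 335 ± 119 to 541 ± 99.2 and 782 ± 189. In HCC827 it was 503 ± 124, 592 ± 189 and 488 ± 52.6. In H1975 it was 502 ± 207, 865 ± 179.6 and 419 ± 74.2, so that it was highest after short washout there. Under DMSO it was 1099 in PC9, 1299.7 in HCC827, 1539 in H1975 and 947 in HCC2935. Of the 10 proliferation genes, 10 were called higher in PC9 and 8 in HCC2935 after long washout against DTP cells, and none in HCC827 or H1975 by edgeR, where 0 passed at an unadjusted p under 0.05. After short washout, 5 were called higher in PC9 (12.1% of all genes) and 2 in HCC2935 (2.47%). In H1975 none was called without the replicate block, although 8 passed at an unadjusted p under 0.05. With the block 10 were called higher in H1975 (6.7% of all genes), and 0 in HCC827. The part of cell growth in the values of the FOXO targets was not tested.

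After the long washout many of the genes still stood above their DMSO levels. Of 40 tests against DMSO, 22 were called higher, 1 lower and 17 were not called. SESN3, PIK3IP1 and KLHL24 were called higher in all 4 lines. The counts of genes called higher were 6 in PC9 (all tested genes 15.9% higher and 14.7% lower), 5 in HCC827 (19.7% and 19.9%), 8 in H1975 (26.8% and 28.2%) and 3 in HCC2935 (21% and 18.9%). The same DMSO libraries served the acute and DTP comparisons.

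PIK3IP1 stood 3.33 ± 0.16 above DMSO on the log2 scale in H1975 (SE, edgeR adjusted p = 8.92e-06), 3.14 ± 0.68 in PC9, 2.48 ± 0.34 in HCC827 and 1.59 ± 0.26 in HCC2935. KLHL24 stood between 1.33 (HCC827) and 1.88 (PC9) above it. In PC9 these values rest in part on long washout replicate 3, and without it PIK3IP1 stood 2.0997 (edgeR adjusted p = 0.00615) and KLHL24 1.34 (0.000433) above DMSO. FOXO4 (1.30), TXNIP (1.10) and CCNG2 (1.18) were also called higher in PC9, with 0.87, 0.69 and 0.73 without that library, each still called. SESN3 in HCC827 had 36.5, 46.6 and 24.9 CPM against 3.05, 1.29 and 9.97 under DMSO (2.90 ± 0.58, adjusted p = 0.00397). TXNIP in HCC2935 had 299, 258 and 273 CPM and remained below its DMSO libraries of 505, 458 and 400.4 (-0.68 ± 0.11, adjusted p = 0.00121). In PC9 the number of genes called was 1 without DMSO replicate 1 (13.6% of all tested genes called) or DMSO replicate 3 (9.58%) and 8 without long washout replicate 2 (37.4%), against 30.6% of all genes with every library. The FOXO1 call in HCC827 (0.60 ± 0.20, adjusted p = 0.0364) was lost without any of its 6 libraries, with adjusted p up to 0.13.

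Other genes known as FOXO-induced were taken as a list of 30, of which between 26 and 28 passed the filter on low counts in a line. This list was also chosen with earlier results of these data known. Under acute osimertinib 20 of 28 were called higher and 6 lower in PC9, 12 and 3 of 27 in HCC827, 17 and 1 of 26 in H1975 and 16 and 3 of 27 in HCC2935, against the shares of all genes given above. The median log2 fold change of the list was 0.91, 0.51, 0.75 and 0.56 in the same order, and at most 0.03 over all genes. A total of 8 genes of the list were called higher in all 4 lines. Of these, TNFSF10, which encodes the death ligand TRAIL, had log2 fold changes between 1.52 and 4.83, and BBC3, which encodes the pro-apoptotic protein PUMA, between 1.23 and 1.86. GABARAPL1 (1.33 to 3.23), ULK1 (1.52 to 1.92) and ATG14 (0.67 to 1.63) act in autophagy. INSR, the insulin receptor, rose by between 0.53 and 1.62, BCL6, a transcriptional repressor, by between 0.89 and 2.67, and MXI1, a MYC antagonist, by between 0.87 and 1.56.

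The list also held 5 genes called in opposite directions in 2 lines, CDKN1A, SOD2, SESN2, IGF1R and IGFBP1, the last of which was tested in PC9 and HCC827 alone. CDKN1A, which encodes the CDK inhibitor p21, was lower in PC9 (-1.04, edgeR adjusted p = 0.000699) and higher in H1975 (1.35, 0.00534). SOD2, the mitochondrial superoxide dismutase, was lower in PC9 (-0.79) and higher in HCC827 (1.41). SESN2, the third sestrin, was lower in PC9 (-0.78) and higher in H1975 (0.60), and IGF1R was higher in H1975 (0.83) and lower in HCC2935 (-1.41). The differences between lines were not tested for these genes. In DTP cells against DMSO the list had 21 genes higher and 2 lower of 28 in PC9, 10 and 1 of 27 in HCC827, 15 and 4 of 26 in H1975 and 14 and 3 of 27 in HCC2935. The shares of all tested genes called higher and lower there were 35.4% and 35.9% in PC9, 19.4% and 17.2% in HCC827, 22.4% and 23.4% in H1975 and 25.3% and 27.2% in HCC2935. After short washout against DTP cells, 13 of 28 were lower and 1 higher in PC9 (10.1% and 12.1% of all genes) and 3 of 27 lower in HCC2935 (1.04% of all genes). Without the replicate block edgeR called none in HCC827 or H1975, where 2 and 4 passed at an unadjusted p under 0.05. With the block 7 of 26 were lower in H1975, beside 4.87% of all genes, and none of 27 was called in HCC827.

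**Figure D5:**
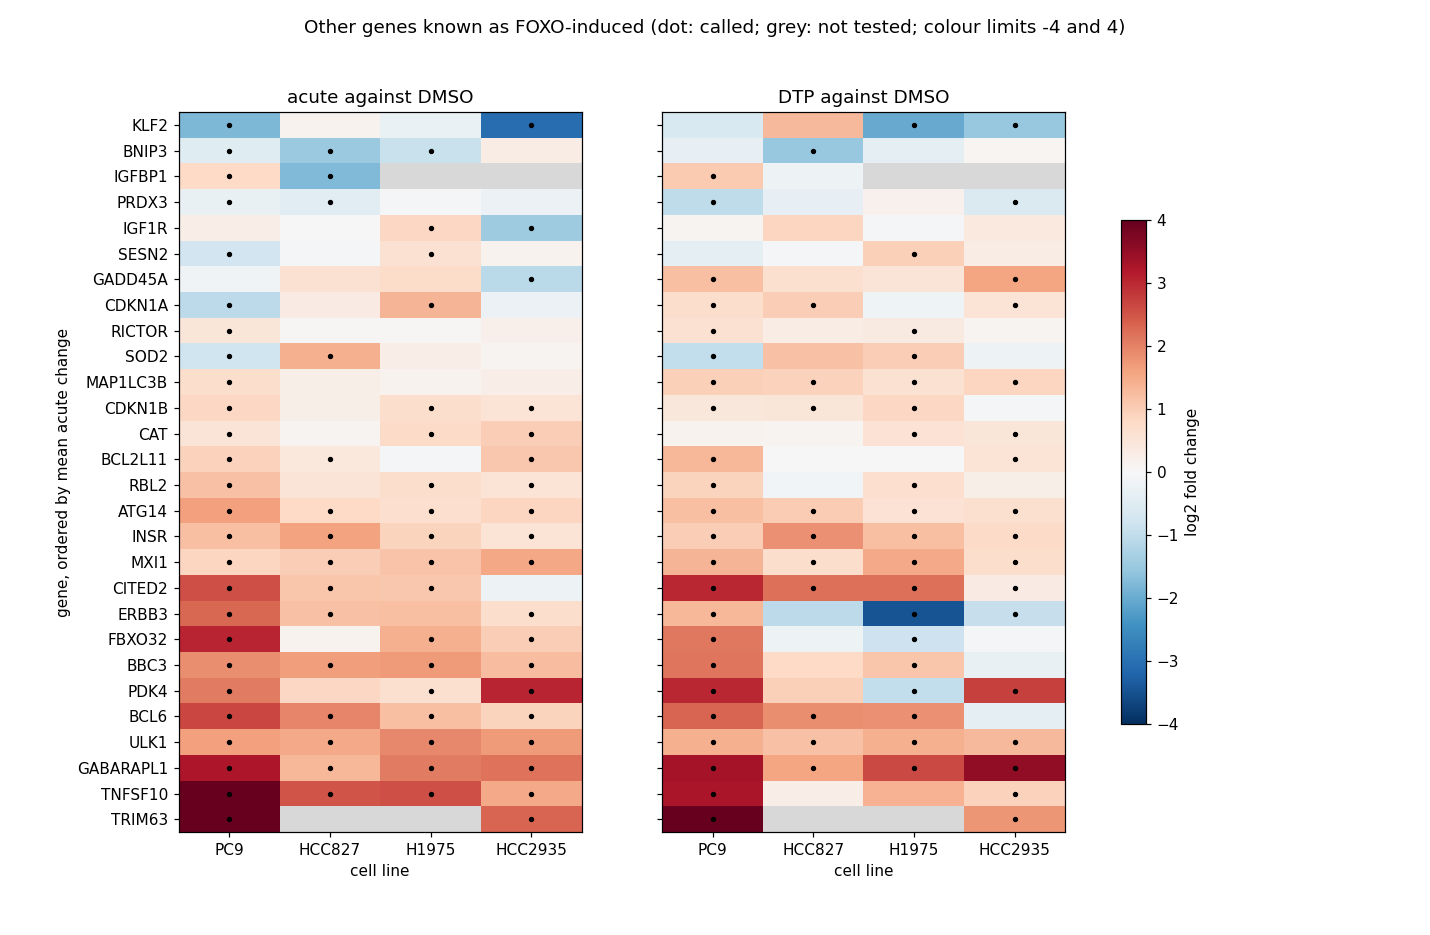
Log2 fold changes (colour) of 28 other genes known as FOXO-induced (rows, ordered by their mean acute change) in the 4 lines (columns), for acute osimertinib and for DTP cells against DMSO. Dots mark calls, grey cells were not tested, and values beyond 4 in size take the end colour, as TNFSF10 in PC9 (4.83) does. ERBB3 in HCC2935 is called higher in the acute arm (0.70) and lower in the DTP arm (-0.91).

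A list of 21 regulators of FOXO proteins was measured in every line. Under acute osimertinib 15 were called lower and 4 higher in PC9, 9 and 2 in HCC827, 7 and 3 in H1975 and 11 and 2 in HCC2935. The shares of all tested genes called lower and higher were 34.1% and 34.4% in PC9, 22.1% and 20.2% in HCC827, 23.7% and 21.2% in H1975 and 25.1% and 22% in HCC2935, with the H1975 counts nearest to them. Lower in all 4 lines were 4 genes of 14-3-3 proteins, which hold FOXO proteins in the cytoplasm, YWHAH (by 0.57 to 1.37 on the log2 scale, as the sizes of the decrease), YWHAQ (0.43 to 0.83), YWHAE (0.45 to 0.60) and YWHAB (0.37 to 0.55). SKP2, a ubiquitin ligase subunit that targets FOXO1, and USP7, which removes ubiquitin from FOXO4, were also lower in all 4, by 0.41 to 1.08 and by 0.50 to 0.70. CREBBP, an acetyltransferase, was higher in all 4 (0.27 to 0.60). The export receptor gene XPO1 was called higher in HCC2935 and lower in PC9 and HCC827, with values from -0.83 to 0.41. In DTP cells against DMSO 12 of the 21 were lower and 3 higher in PC9, 6 and 4 in HCC827, 5 and 3 in H1975 and 8 and 1 in HCC2935, beside 35.9% and 35.4% of all genes in PC9, 17.2% and 19.4% in HCC827, 23.4% and 22.4% in H1975 and 27.2% and 25.3% in HCC2935. In H1975 the list was thus called lower about as often as all genes, as a description with no test.

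TXNIP is also induced by glucose through the MondoA and ChREBP factors (MLXIP and MLXIPL) with MLX, so its relatives were measured as a list of 6. Under acute osimertinib 2 of the 6 were called higher and 1 lower in PC9, and none in HCC827. In H1975 2 were higher and 1 lower, and in HCC2935 3 and 1. Of all tested genes 34.4% were called higher and 34.1% lower in PC9, and 20.2% and 22.1% in HCC827. These shares were 21.2% and 23.7% in H1975 and 22% and 25.1% in HCC2935. The list's median log2 fold change was 0.13 in PC9, 0.15 in HCC827, 0.43 in H1975 and 0.46 in HCC2935. None was called the same way in all 4 lines. ARRDC4, the arrestin gene known to share that glucose control, was lower in PC9 (-0.66, edgeR adjusted p = 0.00112) and not called in HCC827 (0.19), H1975 (-0.07) or HCC2935 (-0.09). In HCC2935 DTP cells ARRDC4 had a log2 fold change of 0.05 (not called), ARRDC3 was called higher and MLXIPL (-1.31) and MLX (-0.69) were lower. These 4 genes, and IGFBP1 and ERBB3 among the FOXO-induced genes, were named after their values were seen. The part of glucose control in the TXNIP values was not tested.

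Across the 20 group means, each centred within its line and on the log2 scale of CPM with 1 added, the members fell into a tight set and a loose one. The correlation was 0.977 between FOXO4 and KLHL24, 0.947 between FOXO4 and PIK3IP1, 0.936 between PIK3IP1 and KLHL24, 0.8997 between CCNG2 and PIK3IP1 and 0.868 between FOXO4 and CCNG2 (Pearson, 20 group means). TXNIP had 0.760 with CCNG2 and 0.590 with KLHL24, SESN3 had 0.677 with PIK3IP1 and 0.634 with IRS2, and IRS2 had 0.283 with KLHL24. FOXO1 had 0.517 with IRS2 and 0.301 with KLHL24, and SESN1 had no value above 0.373. Among 13795 other genes, the nearest to KLHL24 were ING4 (0.992) and CREBRF (0.990), to PIK3IP1 TP53INP1 and GLMP (0.980 each), and to FOXO4 CREBRF (0.979) and PBXIP1 (0.976). The nearest to TXNIP was IGBP1 (0.926), to CCNG2 SLC17A7 (0.945), to SESN3 ARMC9 (0.946), to FOXO1 RUSC2 (0.926), to FOXO3 SUPT7L (0.925) and to SESN1 RCBTB2 (0.772). These values describe likeness over groups that share arms and libraries, and they carry no test.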

How the data were processed

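RNA-seq libraries (TruSeq mRNA kit, Illumina sequencing) were made from 60 samples of 4 lines in 5 arms. The submitters' processing notes name HISAT2 2.1.0, Salmon 0.8.2 and hg38, and the role of each program, the gene annotation and the use of strand in counting are not given in the sources used here. The authors deposited estimated counts per gene, which need not be whole and were rounded here, and log2 values of TPM with 0.01 added. Groups were taken from the sample labels.

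Genes were filtered with filterByExpr, scaled by TMM and tested with the quasi-likelihood F-test of edgeR 4.0.16 (R 4.3.3) on the 6 libraries of each comparison, 12 DMSO libraries for pairs of lines and 24 for the interaction of line and arm (3 terms). Adjustment was over all genes tested (Benjamini-Hochberg), with calls at an adjusted p under 0.05. A standard error is the log2 fold change divided by the square root of F. CPM values used TMM factors over the 60 libraries, and levels were compared between genes in TPM. Where nothing says that replicates came from separate cultures, p-values measure the spread between these samples, which may be technical. The members and gene lists were chosen with earlier results of these data known. From each list, up to 8 genes called the same way in 4 lines and up to 4 called in opposite directions under acute osimertinib were named, by the size of their mean log2 fold change, and likeness was taken as the highest Pearson correlations over 20 group means. Some genes that this rule names are not reported here.

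Alternatives were DESeq2 1.42.0, limma 3.58.1 on log2 TPM with 0.01 or 1 added, DESeq2's size factors, library size alone, no filter, a minimum of 10 counts in every library, the 15 libraries of a line, a replicate block and leaving out each library. Same-numbered libraries were checked for deviating together. Every pair correlated over 0.1 for short washout and DTP in HCC827 (0.402 to 0.694) and H1975 (0.249 to 0.599) and for acute and DMSO in HCC2935 (0.126 to 0.357). The acute values given for HCC2935 are without the block. The calls of FOXO4, TXNIP, CCNG2, SESN3, PIK3IP1 and KLHL24 there held with it. Replicates of a group differed by between 8.81 and 140 times the variance of counting error (60 pairs, genes of 20 counts or more), so none was taken as the same library. The fits were tested on simulated data. Python 3.11.15, numpy 2.4.6, pandas 2.3.3 and matplotlib 3.10.9 were used.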

Additional observations from a re-analysis of the deposited data

Results flagged for a closer look

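Each of the following was picked out because the effect of osimertinib differed between the 4 lines by the interaction test of edgeR, with p adjusted over all genes. In acute against DMSO these were FOXO4 (adjusted p = 0.0332), TXNIP (0.0465), CCNG2 (0.0014), PIK3IP1 (7.35e-05), IRS2 (0.00361) and KLHL24 (0.00501). CCNG2 had its smallest change in HCC827 (0.55 on the log2 scale) and its largest in PC9 (2.27), KLHL24 its smallest in H1975 (1.80) and its largest in HCC2935 (3.35), and FOXO4 its smallest in HCC827 (1.74) and its largest in HCC2935 (3.32). In DTP against DMSO they were FOXO3 (adjusted p = 0.000321), FOXO4 (0.0397), TXNIP (1.56e-06), CCNG2 (0.00213), PIK3IP1 (0.000144), IRS2 (0.000178) and KLHL24 (0.00361). FOXO3 ranged there from -0.09 in PC9 to 0.57 in H1975, IRS2 from 0.01 in PC9 to 1.59 in H1975, and TXNIP from -0.95 in HCC2935 to 1.71 in PC9. In the acute comparison limma on log2 TPM called no difference for FOXO4 (adjusted p = 0.0791 with 0.01 added and 0.372 with 1 added). The test called 40.5% of all genes in the acute and 61.6% in the DTP comparison.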

How the results depend on the processing

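Of 5429 values of single genes under other settings, 5120 kept their side of the threshold, 193 were no longer called, 113 became called and 3 reversed. A change of sign was counted as reversed only where the value was called in at least 1 of the settings compared. Values not called in either may have changed sign, and those of the interaction test have no direction. The reversed values were all of FOXO1 without HCC2935 DMSO replicate 2: from -0.66 to 0.78 for acute against DMSO in HCC2935 (leave-one-out range -1.06 to 0.78), from -0.37 to 1.08 for HCC827 against HCC2935 under DMSO (range -0.78 to 1.08) and from -0.44 to 1.02 for H1975 against HCC2935 (range -0.85 to 1.02). FOXO1 in long washout against DMSO in HCC2935 went from 0.62 to 2.06 without that library.

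The counts below are edgeR calls at an adjusted p under 0.05. For DTP against acute in HCC827, 6 of the 10 genes were called, 3 in a fit of the line's 15 libraries and 2 to 7 on leaving out a library (2 without acute replicate 1 or 2 or DTP replicate 3), with 4156 of all genes and 2328 (without acute replicate 1) to 5237. In H1975, 1 was called, 2 by DESeq2, 0 by limma on either scale, 0 with 15 libraries and 0 to 2 on leaving out a library (0 without acute replicate 2 or 3 or DTP replicate 3, and 2 without acute replicate 1), with 3894 of all genes and 1775 (without acute replicate 2) to 4610.

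For short washout against DTP in PC9, 7 of the 10 were called and 1 with 15 libraries, with 3221 of all genes, 880 with 15 libraries and 1785 to 2649 on leaving out a library. In HCC827, DESeq2 called 1 of all genes where edgeR called 0. In H1975, 0 of the 10 were called and 1 by DESeq2, with 0 of all genes, 400 by DESeq2, 9 with 15 libraries and 0 to 276 on leaving out a library. In HCC2935, 4 of the 10 were called, 2 by limma on either scale and 1 to 5 on leaving out a library, with 503 of all genes, 1160 by DESeq2 and 76 to 674.

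For long washout against DTP in PC9, 1 of the 10 was called, 2 with a minimum of 10 counts, 5 by DESeq2, 2 by limma on log2 TPM with 1 added, 6 with 15 libraries and 0 to 5 on leaving out a library, with 2496 of all genes, 4210 by DESeq2, 5532 with 15 libraries and 0 to 6815 (6815 without long washout replicate 3). In HCC827, 0 of all genes were called, 7 by DESeq2 and 0 to 3 on leaving out a library. In H1975, 2 of all genes were called, 73 by DESeq2, 0 by limma on either scale, 1 with 15 libraries and 0 to 1 on leaving out a library. In HCC2935, 2 of the 10 were called, 4 by DESeq2, 4 with 15 libraries and 0 to 6 on leaving out a library, with 745 of all genes, 1698 by DESeq2, 1758 with 15 libraries and 17 to 1837 (1837 without long washout replicate 1). For long washout against DMSO in PC9, 6 of the 10 were called and 1 to 8 on leaving out a library, with 4278 of all genes, 6672 with 15 libraries and 1364 to 5316. For HCC827 against H1975 under DMSO, 2 of the 10 were called and 2 to 5 on leaving out a library.

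With the replicate block, the counts moved in short washout against DTP to 7 of the 10 and 1697 of all genes in H1975, and for all genes to 2023 in PC9, 2 in HCC827 and 244 in HCC2935. In long washout against DTP they moved to 4 of the 10 in PC9, and to 0 of the 10 and 38 of all genes in HCC2935. The cause of these shifts was not tested. The labels do not say what a replicate number marks, and outside the 3 comparisons in which every pair correlated over 0.1 the libraries share a number alone.

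Depth was lower in HCC827 and HCC2935 than in the other lines.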
